A study of Mus musculus with 16 samples.

Results

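The suppressors of cytokine signalling were examined as a family of 8 genes, Socs1 to Socs7 and Cish, taken by gene symbol from the 55359 genes counted in each library. All 8 were counted in every library and all 8 passed the filter on low counts that left 17190 genes for testing. The libraries came from MPI-2 cells, a self-renewing wild-type mouse line with the character of alveolar macrophages, kept in medium with GM-CSF in every group. The groups were cells exposed to Mycobacterium abscessus at day 5, uninfected cells at day 5, exposed cells at day 1 and uninfected cells at day 1, with 4 libraries each, labelled as biological replicates. All replicates are of a single cell line, so the p-values measure the spread between these cultures. The labels name neither the bacterial strain nor the dose, and do not say how many of the exposed cells became infected. Mycobacterium abscessus is a rapidly growing nontuberculous mycobacterium that infects the lung.

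Cytokines such as GM-CSF, interleukin-6 and the interferons bind receptors that carry JAK kinases, and the kinases activate STAT transcription factors. SOCS genes are among the genes that STATs switch on, and their proteins close the loop: a central SH2 domain binds phosphorylated receptors or kinases, and a carboxy-terminal SOCS box recruits an elongin and cullin ubiquitin ligase. SOCS1 and SOCS3 also carry a kinase inhibitory region that blocks JAKs directly. CISH and SOCS2 are classical STAT5 targets that act at receptors such as those for growth hormone, while SOCS4 to SOCS7 are less studied and have been tied to growth factor and insulin signalling.

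The windows around the start sites of 3 members are shown because the letters of the cytokine-responsive motifs can be seen in them. They are RefSeq windows of 300 bases on GRCm38.p6, from 250 bases before the start site to 50 bases from it, read 5′ to 3′ on the gene's strand. Only windows of Socs1, Socs3, Socs4 and Cish were searched. Socs2, Socs5, Socs6 and Socs7 were not searched, so the motif results do not cover them. Capitals mark matches to the STAT motif TTCNNNGAA or to the interferon-response core GAAANNGAA. Both were searched on both strands, together with the NF-kB-type motif GGGANTTTC.
Socs1 (chr16:10785487-10785786, minus strand): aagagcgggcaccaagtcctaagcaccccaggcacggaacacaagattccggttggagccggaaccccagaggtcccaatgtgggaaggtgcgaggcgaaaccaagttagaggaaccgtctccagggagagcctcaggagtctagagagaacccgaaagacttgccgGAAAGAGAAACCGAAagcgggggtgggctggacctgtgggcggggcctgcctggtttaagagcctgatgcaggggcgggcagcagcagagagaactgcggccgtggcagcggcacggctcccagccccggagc
Socs3 (chr11:117969317-117969616, minus strand): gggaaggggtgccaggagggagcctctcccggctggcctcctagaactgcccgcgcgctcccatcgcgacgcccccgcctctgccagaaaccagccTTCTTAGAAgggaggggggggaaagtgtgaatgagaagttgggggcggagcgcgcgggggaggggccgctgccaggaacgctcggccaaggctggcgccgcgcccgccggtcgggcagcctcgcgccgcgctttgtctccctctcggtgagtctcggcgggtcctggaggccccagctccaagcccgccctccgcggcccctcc
Cish (chr9:107296409-107296708, plus strand): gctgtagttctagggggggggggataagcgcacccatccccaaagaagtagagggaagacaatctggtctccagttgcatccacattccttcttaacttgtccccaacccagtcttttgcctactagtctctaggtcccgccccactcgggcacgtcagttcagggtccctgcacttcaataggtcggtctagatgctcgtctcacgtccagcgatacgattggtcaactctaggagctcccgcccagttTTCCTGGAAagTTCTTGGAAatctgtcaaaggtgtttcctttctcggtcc
The Socs1 window held 2 matches to the interferon-response core, at -83 to -75 and -77 to -69 from the start site, which share bases with each other. The Socs3 window held 1 STAT match, at -154 to -146. The Cish window held 2 STAT matches, at 1 to 9 and 12 to 20 counted from the start site as 1. The Socs4 window had no match to any of the 3 motifs, and the NF-kB-type motif had none in the 4 windows. Of 32851 mouse windows of this length, 8.3% held the STAT motif, 0.457% held it 2 or more times, 8.56% held the interferon-response core, 0.624% held that 2 or more times, and 1.11% held the NF-kB-type motif. A match describes letters and does not show binding.

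Library totals lay between 46154875 and 81995629 counts. Levels are given as CPM, which are read counts scaled to the library total multiplied by the library's TMM factor, a scaling factor from edgeR. All 15 markers of alveolar-like macrophages averaged at least 1 CPM in every group. Their summed level was lower in exposed cells, at 14400 to 17600 CPM against 24000 to 31600 CPM in uninfected cells at day 5, and at 15800 to 19000 CPM against 21900 to 24000 CPM at day 1. This rested on Chil3, at 2190 to 4150 CPM in exposed against 12300 to 20100 CPM in uninfected cells at day 5. Summed without Chil3, a choice made after seeing the data, the other 14 markers came to 11200 to 14600 CPM in exposed and 11200 to 11800 CPM in uninfected cells at day 5, and to 11400 to 12900 CPM in exposed and 12300 to 12600 CPM in uninfected cells at day 1. Single markers among these 14 moved both ways at day 5. Means were higher in exposed than in uninfected cells for Csf1r, the receptor for macrophage colony-stimulating factor (786 against 96.6 CPM), and for Itgax (928 against 193 CPM). The same held for Car4, Cd68, Lpl, Adgre1, Mertk, Marco and Siglecf. Means were lower in exposed cells for Mrc1 (102 against 375 CPM), Fabp4 (411 against 859), Fabp5 (689 against 1220), Pparg (185 against 383) and Spi1 (183 against 265). Among defining markers of other cell types, Cd3g of T cells and Col1a2 and Lum of fibroblasts had 0 counts in all groups. Group means reached at most 0.00635 CPM for Epcam of epithelial cells and 0.374 CPM for Ly6g of neutrophils. Of 41 markers of other cell types, 14 averaged at least 1 CPM in some group. S100a8 averaged 616 CPM in exposed and 484 CPM in uninfected cells at day 5, and 872 CPM in exposed and 338 CPM in uninfected cells at day 1. At day 5, Lck averaged 11.5 CPM in exposed and 1.81 CPM in uninfected cells, Clec9a 25.3 and 9.41 CPM, Cdh1 18 and 71.2 CPM, and Pdgfra 11.2 and 20.8 CPM in the same order. The share of mitochondrial transcripts was 0.969% ± 0.201 in exposed cells and 1.71% ± 0.126 in uninfected cells at day 5, and 2.28% ± 0.377 and 2.11% ± 0.112 in exposed and uninfected cells at day 1 (SD, n = 4 each). Whether these shifts play a part in the results on the SOCS genes was not tested, and fewer cells expressing a gene and less RNA per cell cannot be told apart in bulk libraries.

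At day 5, 4 of the 8 family members were higher in exposed than in uninfected cells (Socs3, Socs2, Socs1 and Socs7) and 0 were lower, where 28.6% of all tested genes were called higher and 28.4% lower at an adjusted p under 0.05. At day 1, 4 members were again higher (Socs1, Socs3, Cish and Socs2) and 0 were lower, where 13.4% of all tested genes were called higher and 10.5% lower. The edgeR test left 0 members lower at either day. DESeq2 called 0 lower at day 5 and 2 at day 1 (Socs4 and Socs7), and the same 2 had an unadjusted edgeR p under 0.05 at day 1. Socs1 had the largest change of the family at day 1 and Socs3 at day 5. The exposure effect itself changed between the days for 5 members, being greater at day 5 for 3 (Socs3, Socs7 and Socs2) and smaller for 2 (Socs1 and Cish), against 16.4% and 19.5% of all tested genes. The change for Socs4 (0.25 ± 0.10, adjusted p = 0.0541) was just outside the threshold and passed it in 8 of 24 alternatives, among them DESeq2 (adjusted p = 0.0108) and RLE scaling (0.027). The 3 tests use the same libraries and are not independent of each other.

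**Figure D1:**
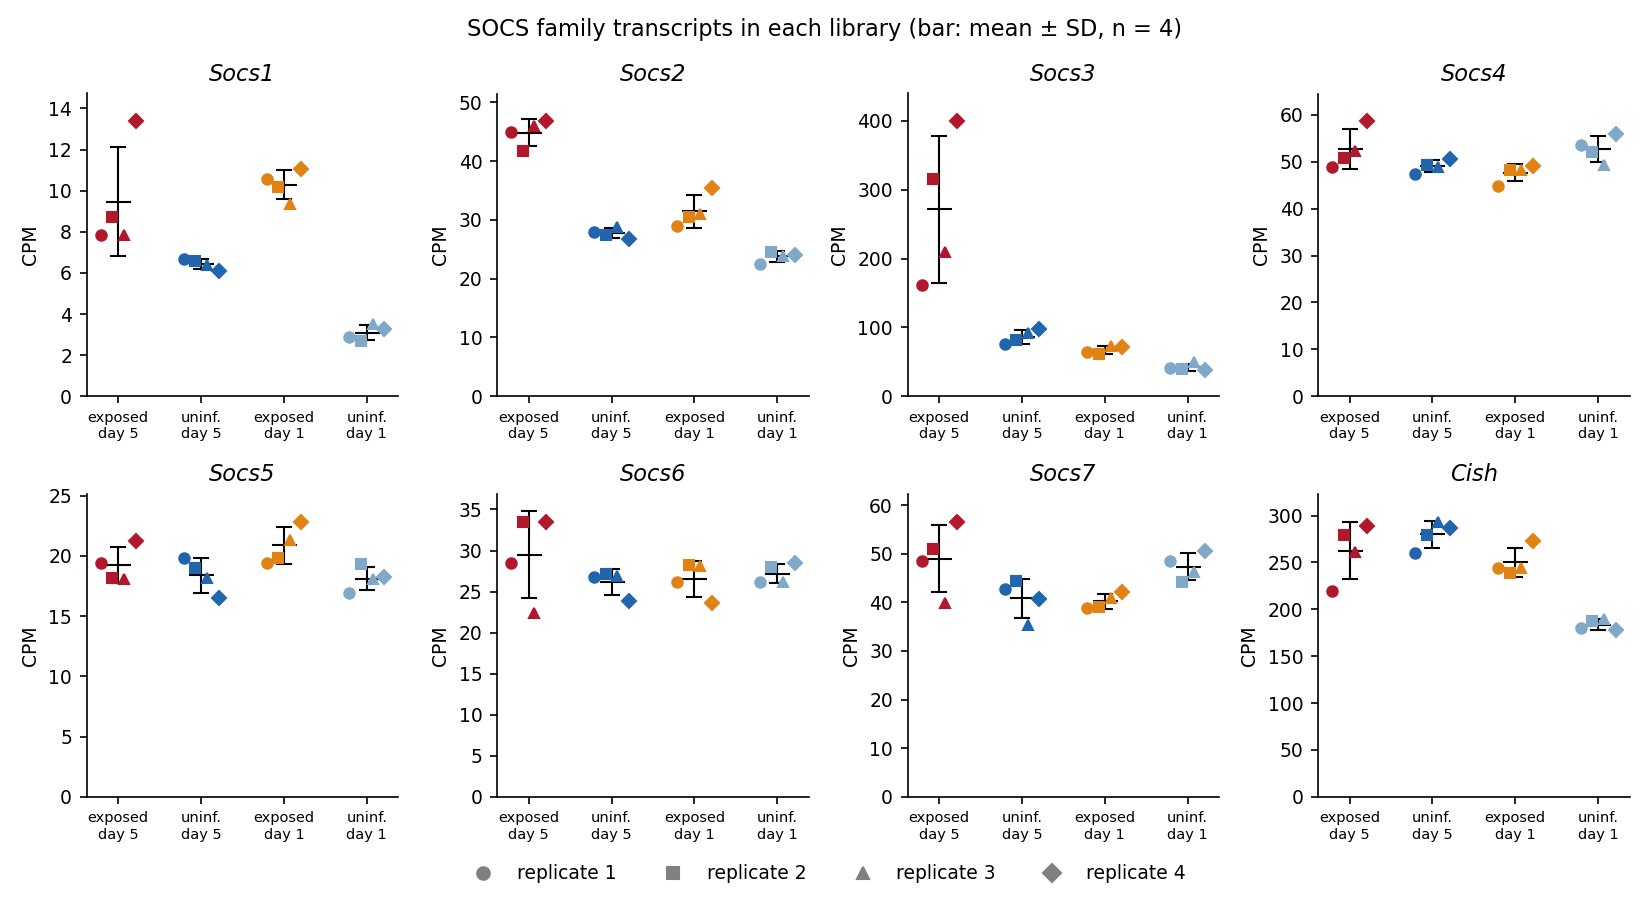
CPM of each SOCS family member (y axis, starting at 0, a separate scale for each gene) in the 16 libraries, with exposed left of uninfected cells at day 5 and then at day 1; symbols are replicates and bars the mean ± SD (n = 4). Socs3 in exposed day 5 cells spreads from 162 to 400 CPM, above every other library, while Socs1 in exposed day 1 cells stands at 9.36 to 11.1 CPM against 2.69 to 3.51 CPM in uninfected cells of that day.

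Socs1 encodes the inhibitor best known for restraining interferon signalling through JAK1, JAK2 and TYK2. At day 1 its libraries held 10.6, 10.2, 9.36 and 11.1 CPM in exposed cells (replicates 1 to 4), against 2.89, 2.69, 3.51 and 3.26 CPM in uninfected cells. The groups were far apart, with a log2 fold change of 1.74 ± 0.15 (SE; 3.35-fold; adjusted p = 9.91e-08). This placed Socs1 at the 97.4th percentile of absolute change among all tested genes at that day. At day 5 the values were 7.87, 8.74, 7.83 and 13.4 CPM in exposed cells, against 6.67, 6.6, 6.36 and 6.11 CPM in uninfected cells. Every exposed library was still above every uninfected one, but by less, and replicate 4 stood apart from the other exposed libraries. The log2 fold change at day 5 was 0.55 ± 0.15 (adjusted p = 0.00296), and it was 0.34 (adjusted p = 0.0134) without exposed replicate 4.

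The fall of the Socs1 exposure effect between days, -1.19 ± 0.21 on the log2 scale (adjusted p = 0.000221), came with a rise in uninfected cells. These averaged 6.43 ± 0.251 CPM at day 5 and 3.09 ± 0.369 CPM at day 1 (SD, n = 4 each), a log2 change of 1.07 ± 0.15 (adjusted p = 6.77e-05). Exposed cells averaged 9.46 ± 2.66 CPM at day 5 and 10.3 ± 0.722 CPM at day 1 (SD, n = 4 each), and this difference was not called (-0.12, 95% interval -0.42 to 0.18, adjusted p = 0.498). Leaving out exposed day 5 replicate 4 turned it into a call, at -0.34 (adjusted p = 0.0162).

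Socs3 encodes the second inhibitor with a kinase inhibitory region, which docks on gp130, the shared receptor chain of the interleukin-6 family. At day 5 it had 162, 315, 210 and 400 CPM in exposed cells, against 75.3, 81.3, 91.9 and 97.9 CPM in uninfected cells. The exposed libraries were all above the uninfected ones and were widely spread, with replicates 2 and 4 well above replicates 1 and 3. The log2 fold change was 1.65 ± 0.21 (3.14-fold; adjusted p = 3.04e-06), and it lay between 1.40 and 1.83 with each library left out in turn. At day 1 the values were 64.1, 61.3, 72.9 and 71.7 CPM in exposed cells, against 40.9, 40.2, 49.4 and 38.4 CPM in uninfected cells. The groups did not overlap, and the log2 fold change was 0.68 ± 0.20 (adjusted p = 0.0226). That day 1 call was lost when exposed day 1 replicate 3 or 4 or uninfected day 1 replicate 1, 2 or 4 was left out, with adjusted p between 0.0551 and 0.0675. Over all alternatives tried, the adjusted p of this value lay between 2.09e-06 and 0.218.

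The Socs3 exposure effect was greater at day 5 than at day 1 by 0.97 ± 0.28 on the log2 scale (adjusted p = 0.0134). Its level also rose with time in uninfected cells, which averaged 86.6 ± 10.2 CPM at day 5 and 42.2 ± 4.87 CPM at day 1 (log2 change 1.04 ± 0.20, adjusted p = 0.00208). In exposed cells it averaged 271.7 ± 106.7 CPM at day 5 and 67.5 ± 5.68 CPM at day 1 (SD, n = 4 each), a log2 change of 2.01 ± 0.21 (4.03-fold; adjusted p = 6.33e-07). Among the 8 members this was the largest change in any of the comparisons.

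Cish encodes CIS, which competes for the STAT5 docking sites of cytokine receptors and is an established STAT5 target. At day 1 it had 244, 238.5, 244.5 and 272.5 CPM in exposed cells, against 179.6, 187.4, 189.7 and 177.9 CPM in uninfected cells. The groups were separate, and the log2 fold change was 0.44 ± 0.09 (adjusted p = 0.00101). At day 5 the values were 219.9, 279.6, 261.2 and 289.1 CPM in exposed cells, against 260.1, 278.7, 293.6 and 287.2 CPM in uninfected cells. The day 5 groups overlapped and the difference was not called (-0.09, 95% interval -0.27 to 0.09, adjusted p = 0.365).

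The exposure effect on Cish was thus smaller at day 5 by 0.54 on the log2 scale (-0.54 ± 0.12, adjusted p = 0.0019). Uninfected cells averaged 279.9 ± 14.5 CPM at day 5 and 183.7 ± 5.78 CPM at day 1, a log2 rise of 0.61 ± 0.09 (adjusted p = 6.63e-05). Exposed cells averaged 262.4 ± 30.6 CPM at day 5 and 249.9 ± 15.3 CPM at day 1 (SD, n = 4 each), which was not called (0.07, adjusted p = 0.514). Cish overlaps the antisense genes Gm17040 and Gm17041 in the GENCODE annotation. These held 1838 and 116 counts over the 16 libraries, against 264892 counts of Cish.

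Socs2, known in mice for restraining growth hormone signalling, was higher in exposed cells on both days. At day 5 it had 44.9, 41.6, 45.9 and 46.8 CPM in exposed cells, against 27.9, 27.4, 28.8 and 26.8 CPM in uninfected cells. The groups were separate and tight, with a log2 fold change of 0.69 ± 0.07 (adjusted p = 1.21e-07). At day 1 the values were 28.9, 30.4, 31 and 35.5 CPM in exposed cells, against 22.5, 24.6, 23.9 and 24.1 CPM in uninfected cells. The groups were separate again, with a log2 fold change of 0.40 ± 0.07 (adjusted p = 0.000523). The increase of the effect between days (0.29 ± 0.10, adjusted p = 0.0319) was past the threshold by little. It was lost in 10 of the 16 fits that left out 1 library: exposed day 1 replicate 1, 2 or 3, exposed day 5 replicate 4, uninfected day 1 replicate 2, 3 or 4, and uninfected day 5 replicate 1, 2 or 4 (adjusted p between 0.0521 and 0.0795). The same held with no filter beyond 1 read (adjusted p = 0.0875).

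Socs7, whose protein binds insulin receptor substrates, had 48.6, 50.9, 39.9 and 56.6 CPM in exposed cells at day 5, against 42.7, 44.4, 35.4 and 40.7 CPM in uninfected cells. Exposed replicate 3 lay inside the range of the uninfected libraries and the other 3 above it. The log2 fold change was 0.26 ± 0.09 (adjusted p = 0.0217), and the call was lost without exposed day 5 replicate 4 (0.19, adjusted p = 0.1), without uninfected day 5 replicate 3 (0.20, adjusted p = 0.0956) and in a fit of the day 5 libraries alone (adjusted p = 0.0802). At day 1 it had 38.9, 39, 40.8 and 42.1 CPM in exposed cells, against 48.5, 44.1, 46.3 and 50.6 CPM in uninfected cells. All exposed libraries were below the uninfected ones, but the log2 fold change of -0.24 ± 0.09 was not called (adjusted p = 0.0733). It was called lower with DESeq2 (adjusted p = 0.0412), with RLE scaling (0.0485) and in a fit of the day 1 libraries alone (0.00316). The same held without exposed day 5 replicate 3 (0.0211) and without exposed day 5 replicates 2 and 3 (0.0166). The difference between the days was called (0.50 ± 0.13, adjusted p = 0.00631), and it lay between 0.43 and 0.59 with each library left out in turn.

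Socs4, Socs5 and Socs6, linked in other work to EGF receptor and insulin signalling, were not called on either day. Socs6 had 28.5, 33.5, 22.3 and 33.5 CPM in exposed cells at day 5, against 26.8, 27.2, 26.9 and 23.8 CPM in uninfected cells. Exposed replicate 3 was the lowest of the 8 libraries and the other 3 exposed libraries were the highest. The log2 fold change was 0.17 (95% interval -0.05 to 0.39, adjusted p = 0.174), and without exposed day 5 replicate 3 it was 0.28 (adjusted p = 0.00618). At day 1 it was -0.04 (95% interval -0.26 to 0.19, adjusted p = 0.848). The difference between the days was not called (0.21, adjusted p = 0.301), but was without exposed day 5 replicate 3 (0.32, adjusted p = 0.0288).

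Socs4 was at 48.9 to 58.7 CPM in exposed cells and 47.5 to 50.6 CPM in uninfected cells at day 5 (log2 fold change 0.10, 95% interval -0.04 to 0.25, adjusted p = 0.214). At day 1 it was at 44.9 to 49.1 CPM in exposed cells and 49.2 to 55.9 CPM in uninfected cells, and the groups were separated by less than 1 CPM. The log2 fold change of -0.15 (95% interval -0.29 to -0.001, adjusted p = 0.134) was not called, but was with DESeq2 (adjusted p = 0.043) and in a fit of the day 1 libraries alone (0.0485). Socs5 was at 18.1 to 21.3 CPM in exposed cells and 16.5 to 19.8 CPM in uninfected cells at day 5 (0.07, 95% interval -0.11 to 0.24, adjusted p = 0.517). At day 1 it was at 19.4 to 22.9 CPM in exposed cells and 16.9 to 19.3 CPM in uninfected cells. That log2 fold change of 0.20 ± 0.08 was not called (adjusted p = 0.084), and it was called higher in a fit of the day 1 libraries alone (adjusted p = 0.0191), with a filter of 1 CPM in 4 libraries (0.0449) and without exposed day 5 replicates 2 and 3 (0.0475).

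**Figure D2:**
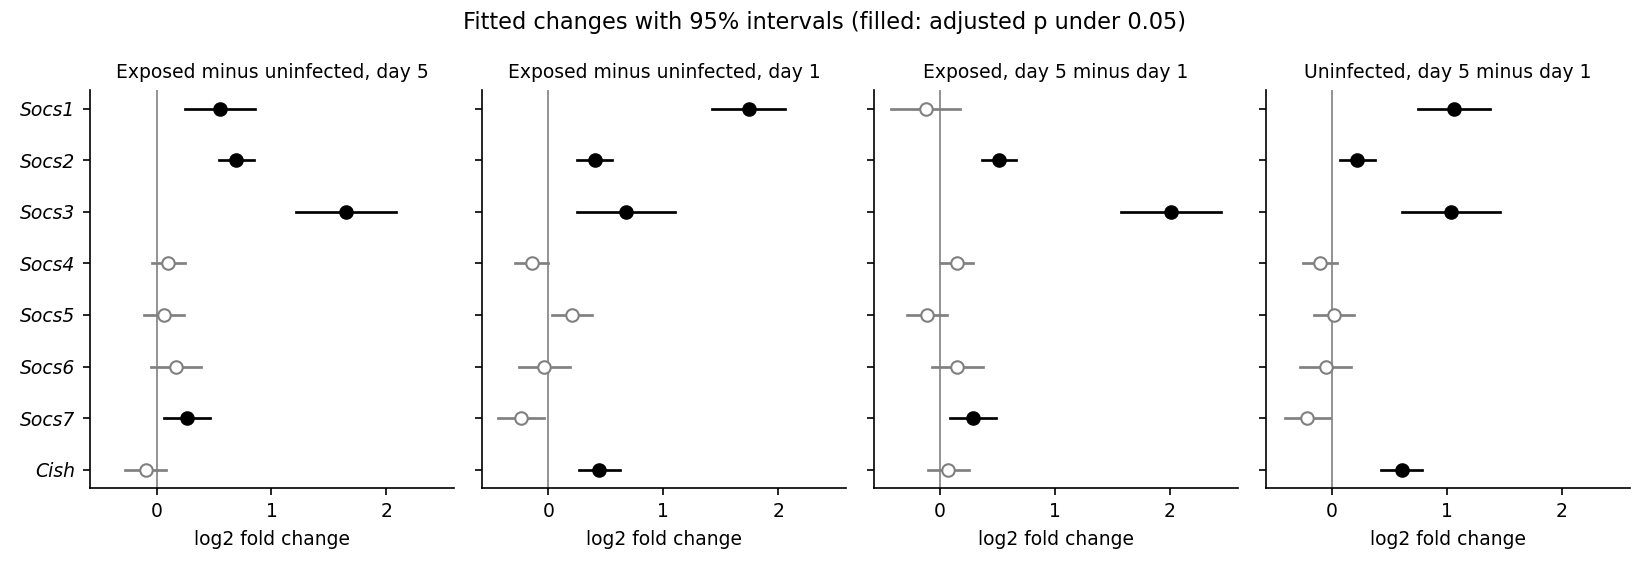
Fitted log2 fold changes of the 8 members (x axis) with 95% intervals, from left to right for exposed minus uninfected at day 5 and at day 1, and for day 5 minus day 1 in exposed and in uninfected cells. Filled points have an adjusted p under 0.05: Socs1 stands furthest to the right at day 1 (1.74) and Socs3 at day 5 (1.65).

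Time in culture was compared within each treatment as well. In exposed cells edgeR called 3 members higher at day 5 than at day 1 (Socs3, Socs2 and Socs7) and 0 lower, against 25.6% and 25.2% of all tested genes. At an unadjusted p under 0.05 and with DESeq2, 0 were lower too. DESeq2 called 4 higher, with Socs4 besides those named (0.17, adjusted p = 0.0321). With edgeR the Socs4 change was 0.14 (adjusted p = 0.0907). It was called with a filter of 1 CPM in 4 libraries (0.0299) and without exposed day 5 replicate 1 (0.0479). Socs6 was not called (0.15, adjusted p = 0.247). It was called higher without exposed day 5 replicate 3 (0.26, adjusted p = 0.0117) and without exposed day 5 replicates 2 and 3 (0.22, adjusted p = 0.049). In uninfected cells 4 members were higher at day 5 (Socs1, Socs3, Cish and Socs2) and 0 were lower, against 10.8% and 8.91% of all tested genes. Socs7 had an unadjusted p of 0.0334 in the lower direction (-0.22 ± 0.09, adjusted p = 0.115). DESeq2 called 0 lower, but edgeR called Socs7 lower in a fit of the uninfected libraries alone (adjusted p = 0.0261), without exposed day 5 replicate 3 (0.0386) and without exposed day 5 replicates 2 and 3 (0.0319). Socs1, Socs3, Cish and Socs2 are the members that were also higher with exposure at day 1, and both comparisons share the uninfected day 1 libraries. Socs2 averaged 44.8 ± 2.26 CPM at day 5 and 31.5 ± 2.82 CPM at day 1 in exposed cells (log2 change 0.51 ± 0.07, adjusted p = 8.22e-06). In uninfected cells it averaged 27.7 ± 0.845 CPM at day 5 and 23.8 ± 0.92 CPM at day 1 (0.22 ± 0.07, adjusted p = 0.0377; SD, n = 4 each).

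That last call was lost in 10 of the 16 fits that left out 1 library, namely exposed day 1 replicate 2 or 3, any uninfected day 1 library and any uninfected day 5 library (adjusted p between 0.0507 and 0.122). It was also lost with RLE scaling (adjusted p = 0.0537) and with no filter beyond 1 read (0.218). The Socs7 rise in exposed cells (0.29 ± 0.09, adjusted p = 0.0157) had overlapping groups and was lost without exposed day 5 replicate 4 (0.21, adjusted p = 0.0752).

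**Figure D3:**
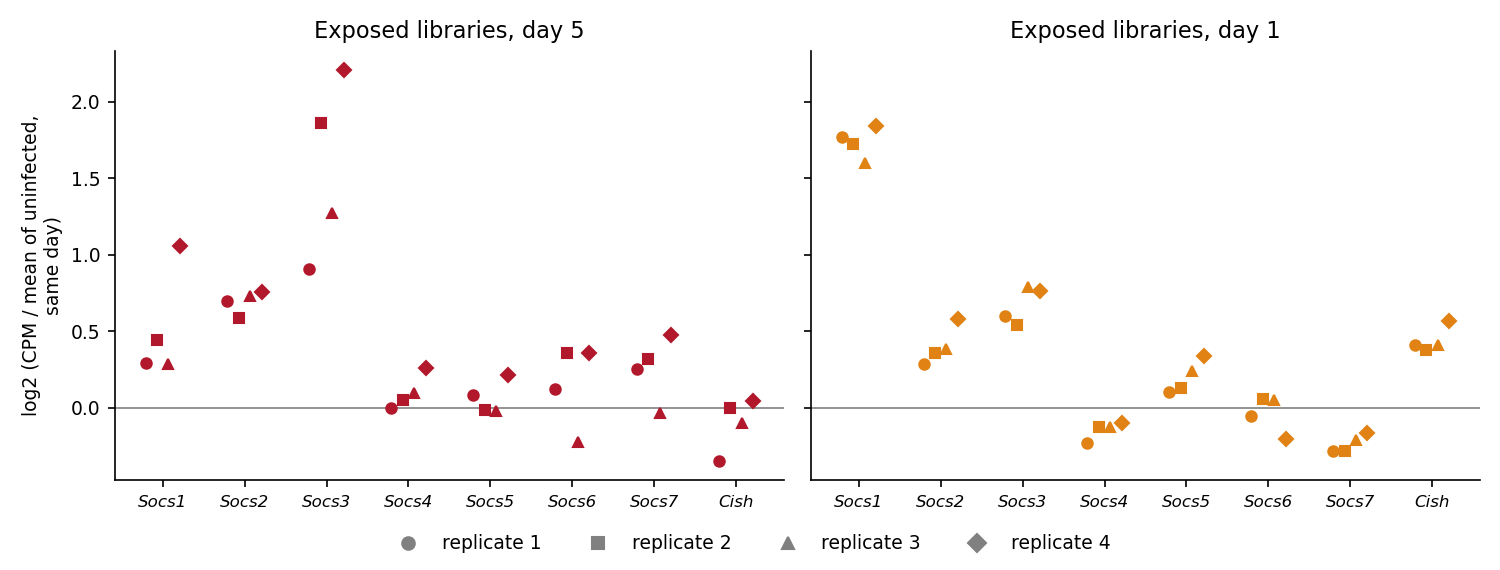
log2 ratio of CPM in each exposed library to the mean of the uninfected libraries of the same day (y axis; 0 means equal), for day 5 on the left and day 1 on the right; symbols are replicates. At day 5 the Socs3 points of replicates 2 and 4 stand above those of replicates 1 and 3, and at day 1 the Socs1 and Socs3 points of the 4 replicates lie closer together.

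Exposed day 5 cultures differed among themselves over many genes. Of the 6 pairs in that group, replicates 2 and 4 were the closest, with a mean chi-square per gene of 110.87 against 131.8 to 395.64 for the others. Socs3 stood at 1.87, 3.64, 2.42 and 4.62 times the mean of uninfected day 5 cells in replicates 1 to 4, and Socs1 at 1.22, 1.36, 1.22 and 2.08 times. Il6, whose product signals through gp130, had 19.3, 121, 32.4 and 96 CPM in the same libraries, against 0.292, 0.264, 0.495 and 0.582 CPM in uninfected day 5 cells. Jak2 had 151, 290, 146 and 283 CPM in exposed day 5 cells, against 73.4, 71.8, 68.8 and 64.5 CPM in uninfected day 5 cells. Replicates 2 and 4 were thus the higher pair for Socs3, Il6 and Jak2, which 4 libraries can only describe. Jak3, at 34.3, 32.4, 43.9 and 31.4 CPM, was lowest in those 2 libraries, whose TMM factors were also the lowest of the group (0.845 and 0.935, against 0.989 and 1.027 in replicates 1 and 3). Whether this general difference plays a part in the Socs3 spread was not tested. File names give replicates 2 and 3 of that group a library code of another series than the rest, and these do not form the higher pair.

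Levels of different members were compared as CPM per kilobase of merged exons. Cish was highest in 3 of the 4 groups, at 43.6 in uninfected day 5 cells, 38.9 in exposed day 1 cells and 28.6 in uninfected day 1 cells. In exposed day 5 cells Socs3 came first, at 94.0 (range 56.1 to 138.3), above Cish at 40.9 (34.3 to 45.0), with no overlap. Socs4 and then Socs7 followed in every group, with group means of 6.93 to 7.67 and 5.53 to 6.74 CPM per kilobase. Their ranges overlapped in exposed day 5 cells.

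Socs1 was the lowest member in uninfected cells, at 2.21 CPM per kilobase at day 5, where its range overlapped that of Socs6, and at 1.06 at day 1, where it did not. In exposed cells it stood at 3.25 at day 5 and 3.54 at day 1, with ranges that overlapped those of Socs2 and Socs5 on both days. The places depend on which transcript length is used. With the length of the longest principal transcript, an alternative chosen after seeing the data, Socs2 came right after Cish and Socs3 in every group, Socs1 last in every group, and in exposed day 5 cells Socs3 (106.4 CPM per kilobase) and Cish (92.1) overlapped.

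**Figure D4:**
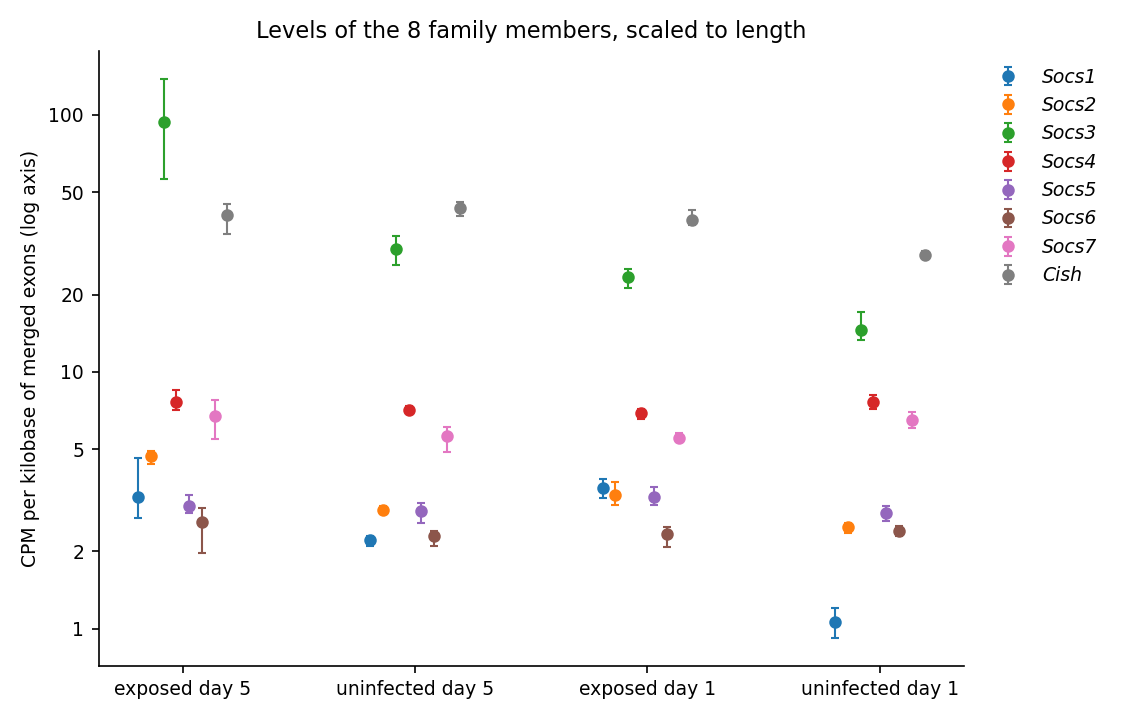
Level of each member as CPM per kilobase of merged exons (y axis, log scale) in the 4 groups; points are means and bars the lowest and highest of 4 libraries. Cish leads in 3 groups and Socs3, at 94.0, in exposed day 5 cells, while Socs1 is lowest in uninfected cells of both days.

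The genes most like a member in pattern were named only for members whose group means spanned at least 1 on the log2 scale, which were Socs3 (2.61) and Socs1 (1.73). Likeness was the root mean square difference of centred log2 CPM over the 16 libraries. Nearest to Socs3 were Cox6a2 (0.22), H2-M3 (0.23) and Tes (0.26). Tes averaged 125 CPM in exposed and 31.5 CPM in uninfected cells at day 5, and 25.5 CPM in exposed and 17.1 CPM in uninfected cells at day 1. Nearest to Socs1 were Adora2b (0.31), Bcl3 (0.33) and Gfi1b (0.35). Adora2b, an adenosine receptor, averaged 98.8 CPM in exposed and 47.6 CPM in uninfected cells at day 5, and 68 CPM in exposed and 27 CPM in uninfected cells at day 1. Its mean in exposed cells was higher at day 5 than at day 1, which that of Socs1 was not, and the Socs1 neighbours were less close than those of Socs3.

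Genes around the SOCS proteins were described as lists, for which the median log2 change of all tested genes was 0.02 at day 5 and 0.03 at day 1. Each count of called genes stands beside 28.6% higher and 28.4% lower over all tested genes at day 5, and 13.4% higher and 10.5% lower at day 1. Of 22 ligands of JAK-coupled receptors, 14 were tested. Of these, 9 were higher and 1 lower in exposed cells at day 5 (median 1.98), and 6 were higher and 0 lower at day 1 (median 0.94; 0 lower also at an unadjusted p under 0.05 and with DESeq2). Il6 changed by 7.36 ± 0.56 on the log2 scale at day 5 and by 2.93 ± 0.59 at day 1. Ebi3, a subunit of interleukin-27, changed by 2.87 ± 0.25 at day 5 and by 1.36 ± 0.24 at day 1. Csf2, which encodes GM-CSF, had 1.77, 13, 2.44 and 8.62 CPM in exposed day 5 cells and 0 counts in every uninfected library.

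Of 31 JAK-coupled receptors, 27 were tested, and at day 5 16 were higher and 9 lower in exposed cells (median 0.50). At day 1, 9 were higher and 2 lower (median 0.25). The GM-CSF receptor chain gene Csf2rb averaged 4040 ± 368 CPM in exposed and 1380 ± 48.9 CPM in uninfected cells at day 5, and 1940 ± 168 CPM in exposed and 1060 ± 23.9 CPM in uninfected cells at day 1 (SD, n = 4 each). Its log2 fold changes were 1.55 ± 0.09 at day 5 (adjusted p = 7.3e-11) and 0.88 ± 0.09 at day 1 (adjusted p = 1.32e-06). Il6ra, the interleukin-6 receptor, was lower at day 5 (-2.63 ± 0.13, adjusted p = 3.08e-12) and lower at day 1 (-0.54 ± 0.12, adjusted p = 0.00244).

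Of 10 JAK kinases and STAT factors described here, 9 were tested, and Stat4 had 0 counts in every library. At day 5, 4 were higher in exposed cells and 3 lower (median 0.14). Stat2 (2.87 ± 0.17), Jak2 (1.64 ± 0.18), Jak1 (0.42 ± 0.14) and Tyk2 (0.38 ± 0.09) rose, and Stat6 (-0.67 ± 0.07), Stat5a (-0.54 ± 0.08) and Stat5b (-0.38 ± 0.07) fell. Stat5a averaged 37.4 ± 0.911 CPM in exposed and 54.6 ± 5.38 CPM in uninfected cells at day 5 (SD, n = 4 each). At day 1, 2 were higher and 1 lower (median 0.04), namely Stat2 (2.63 ± 0.17), Jak3 (0.32 ± 0.10) and, lower, Stat3 (-0.31 ± 0.10). The Stat3 call was lost in each of the 8 fits that left out 1 day 1 library (adjusted p 0.0522 to 0.0798). That of Jak3 was lost without exposed day 1 replicate 1 or 4 or uninfected day 1 replicate 1, 2 or 4 (0.0502 to 0.0719). At day 5 the Jak1 call was lost without exposed replicate 2 (adjusted p = 0.0637).

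Genes known as targets of STATs were described in 2 lists. Of 14 genes listed as STAT5 targets, 2 were higher and 8 lower in exposed cells at day 5 (median -0.54), and 1 was higher and 4 lower at day 1 (median -0.13). Ccnd1, which encodes cyclin D1, averaged 12 ± 3.23 CPM in exposed and 70.4 ± 12 CPM in uninfected cells at day 5 (SD, n = 4 each; log2 fold change -2.55 ± 0.15). Of 14 tested STAT3 targets, 6 were higher and 5 lower at day 5 (median 0.05), and 3 were higher and 4 lower at day 1 (median 0.03).

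In uninfected cells Cish, Socs1, Socs2 and Socs3 were higher at day 5 than at day 1. There 7 of the 14 STAT5 targets and 9 of the 14 STAT3 targets were higher at day 5, against 10.8% of all tested genes. From either list 0 were called lower, against 8.91% of all tested genes. This count was also 0 at an unadjusted p under 0.05 and with DESeq2. The median log2 change was 0.28 for the STAT5 list and 0.54 for the STAT3 list, and 0.02 over all tested genes. The lists share genes, for example Myc between the STAT3 and STAT5 lists.

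**Figure D5:**
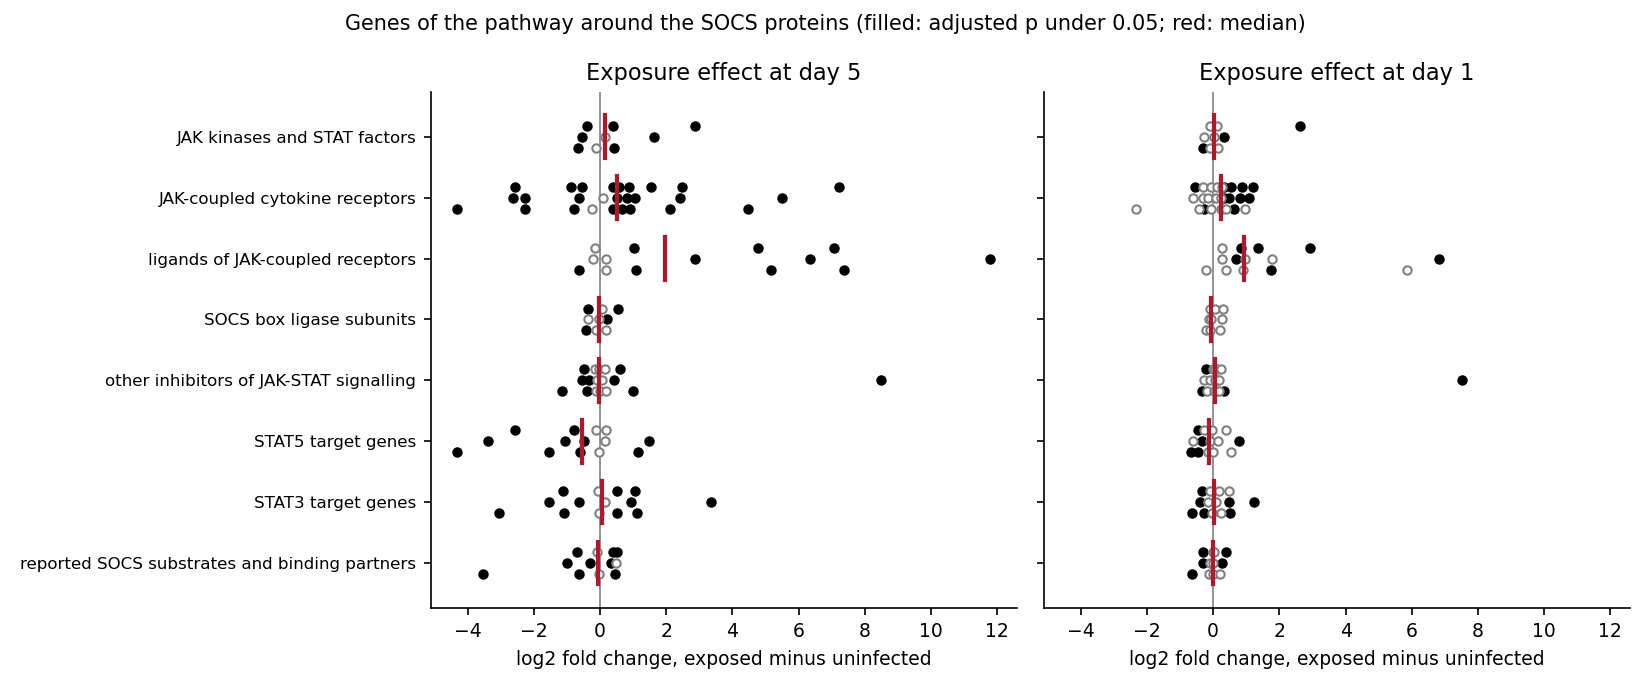
log2 fold change, exposed minus uninfected (x axis), of the tested genes of 8 lists around the SOCS proteins, at day 5 on the left and day 1 on the right. Points are genes, filled where the adjusted p is under 0.05, and red bars are medians: the median of the ligands stands at 1.98 at day 5 and 0.94 at day 1, and that of the STAT5 targets at -0.54 at day 5 and -0.13 at day 1.

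For the machinery that SOCS proteins use and for other inhibitors of the pathway, the called shares lay near or below those of all tested genes. Of 9 subunits of the SOCS box ligase, 2 were higher (Cul2, 0.54 ± 0.10, and Arih2, 0.22 ± 0.08) and 2 lower (Nedd8, -0.41 ± 0.09, and Rbx1, -0.36 ± 0.10) in exposed cells at day 5 (median -0.03). The Arih2 call was lost without exposed day 5 replicate 2 or 4 or uninfected day 5 replicate 2 (adjusted p 0.0522 to 0.0752). At day 1, edgeR called 0 of them (median -0.06), with 3 at an unadjusted p under 0.05 (Eloc and Rbx1, higher, and Arih2, lower), and DESeq2 called 1 lower. Of 17 other inhibitors of JAK-STAT signalling, 4 were higher and 5 lower at day 5 (median -0.03) and 2 higher and 2 lower at day 1 (median 0.07). Usp18, which restrains the type I interferon receptor, averaged 363 ± 186 CPM in exposed and 0.98 ± 0.608 CPM in uninfected cells at day 5, and 78.5 ± 14.3 CPM in exposed and 0.418 ± 0.0876 CPM in uninfected cells at day 1 (SD, n = 4 each). Of 12 tested substrates and binding partners reported for SOCS proteins, 4 were higher and 5 lower at day 5 (median -0.06), against 28.6% and 28.4% of all tested genes. At day 1, 2 were higher and 3 lower (median 0), against 13.4% and 10.5% of all tested genes. Irs2, an insulin receptor substrate, was lower at day 5 (-0.997 ± 0.075) and at day 1 (-0.315 ± 0.075).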

How the data were processed

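Polyadenylated RNA of 16 cultures had been sequenced. Per the submitters' processing notes, reads were processed with STAR and GRCm39, with no version given. The deposited files hold the authors' raw counts per gene, on the reverse strand per the file names, for 55359 genes. Library totals of 46154875 to 81995629 set the precision of counting alone, to which the spread between cultures adds. Symbols came from GENCODE M21, matched for 52083 identifiers, and unmatched ones held 0.449% of counts. Promoter windows are RefSeq's on GRCm38.p6, an older build than that of the counts, so no coordinates were passed between them.

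CPM and tests came from edgeR 4.0.16 in R 4.3.3. Genes passed filterByExpr, libraries were scaled by TMM, and 1 robust quasi-likelihood model with a mean per group was fitted to all 16 libraries. Two-sided p-values were adjusted over 17190 genes (Benjamini-Hochberg) and called at an adjusted p under 0.05. The tests were tried on simulated data. No pair of replicates was a duplicate. Alternatives were DESeq2 1.42.0, RLE scaling, other filters, fits of the compared libraries alone, a replicate block, each library left out, replicates 1 and 2 or 3 and 4 alone, and exposed day 5 cells without the libraries of another code series. Figures were drawn with matplotlib 3.10.9.

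Members and lists were chosen with earlier results of these data known, from general knowledge of the pathway. All members and all listed JAK and STAT genes could be named, and some items are not reported here. From other lists, up to 4 tested genes with the smallest p in each exposure comparison could be named, besides genes at 0 counts and genes in counts of 5 or fewer. Genes like a member in pattern were the 3 with the smallest root mean square difference, among those with at least 5 CPM on average.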

Additional observations from a re-analysis of the deposited data

Results flagged for a closer look

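Among 32 sets of 4 libraries (8 members in 4 groups), 2 held a library that stood apart from the other 3 of its group by Dixon's 95% criterion, and chance sets apart about 1 in 20. Socs1 had 13.4 CPM in exposed day 5 replicate 4, where the other 3 libraries had 7.83 to 8.74 CPM. Socs6 had 23.8 CPM in uninfected day 5 replicate 4, where the other 3 had 26.8 to 27.2 CPM.

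The exposure effect differed between day 5 and day 1 for 5 members by edgeR's test of the difference itself. On the log2 scale it was smaller at day 5 for Socs1 (-1.19) and Cish (-0.54), and greater at day 5 for Socs3 (0.97), Socs7 (0.50) and Socs2 (0.29).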

How the results depend on the processing

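Counts fell most where 2 libraries a group remained. With replicates 1 and 2 alone, 1 member was called at day 1, 2 at day 5, 2 for the change between days and 2 for uninfected days. With replicates 3 and 4 alone, 1 was called at day 1, 0 for the change between days (4 at an unadjusted p under 0.05) and 1 for uninfected days. Over all genes, replicates 1 and 2 alone gave 1219 calls at day 1, 3156 for the change and 609 for uninfected days, of 17444 tested. Replicates 3 and 4 alone gave 724, 1894 and 581, and 4947 for exposed days, of 17071 tested. In fits of the compared libraries alone, 7 members (5 higher, 2 lower) were called at day 1. Of 15858 genes tested in that fit, 7021 were called (3650 higher, 3371 lower). For uninfected days 6424 of 15777 tested genes were called. Without the exposed day 5 libraries of another code series, 5313 of 17921 tested genes were called for uninfected days. With each library left out in turn, the members called numbered 3 to 5 at day 1, 3 to 5 at day 5, 4 to 7 for the change, 3 to 5 for uninfected days and 3 to 4 for exposed days. All genes called in these fits numbered 2926 to 5360 at day 1 and 9144 to 10064 at day 5. They numbered 5399 to 7370 for the change and 7948 to 9115 for exposed days. Genes called for uninfected days then ranged from 2108 (without uninfected day 5 replicate 4) to 4657, with 2225 without uninfected day 1 replicate 4. Some small changes that were not called changed sign. For Socs6 at day 1 the value was 0.006 with replicates 1 and 2 alone and lay between -0.068 and 0.017 with each library left out. Socs5 was at -0.049 at day 5 with replicates 1 and 2 alone, and for uninfected days at -0.065 with replicates 3 and 4 alone and between -0.019 and 0.067 with each library left out. Socs1 in exposed cells between days was at 0.042 without replicates 2 and 3 of exposed day 5 and at 0.054 with replicates 3 and 4 alone. The cause was not tested. RLE scaling moved the median log2 change of all genes by 0.04 at most. No called gene of the pathway lists changed sign under any alternative. The labels do not say whether replicate numbers mark a shared day, and no clear pairing by number was seen. Deviations of same-numbered libraries correlated between -0.15 and 0.15, and 7 of 24 checks put a library closest to its own number. With the replicate number as a block, the members called numbered 4 at day 1, 4 at day 5, 5 for the change, 4 for uninfected days and 3 for exposed days, as without it, and all genes called numbered 3956, 9636, 5992, 3161 and 8532. The lowest count of any member in a library was 180 (Socs1), so that no member was near the limit of detection.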
